A study of Drosophila melanogaster with 6 samples.

Results

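Genes that copy the chromosomes, separate them and divide the cell were examined for binding of the transcription factors Eyeless (Ey) and Suppressor of Hairless (Su(H)) in Drosophila medulla neuroblasts, the neural stem cells of the larval optic lobe. The set held 39 genes named by function, of 18164 annotated genes on 6 chromosome arms. They were 12 genes of DNA replication, 4 of S phase entry, 16 of mitosis and 7 of cytokinesis. The genes were chosen with earlier results of these data known. All 39 were found by symbol in the annotation, and all are protein coding.

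The binding maps came from DamID-seq, in which a bacterial adenine methylase (Dam) fused to a factor marks GATC sites close to where the factor sits. UAS transgenes for Ey-Dam, Su(H)-Dam or unfused Dam were driven by SoxN-Gal4, a driver the study describes as active in all medulla neuroblasts, and there were 2 libraries of each. All 6 libraries, the Dam-alone controls included, also carried UAS-Dcr2 and the temperature-sensitive Gal4 repressor tubG80ts over the CyO balancer. Eggs from an 8-hour window at 25 °C were reared for 3 days at 18 °C, and larvae were then kept for 72 hours at 29 °C, where the repressor is inactive. Each library was made from the optic lobes of about 100 brains dissected from late larvae, so a replicate is a pool of animals and not a single animal. The fusion proteins were made from transgenes in addition to the endogenous factors. No RNA was measured, so the labelled cell type could not be checked against marker genes, and a peak does not say whether a gene was transcribed.

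Ey is a Pax6 protein and one of the temporal factors that medulla neuroblasts express in sequence as they age, and Su(H) is the DNA-binding protein through which Notch signaling acts on its targets. Neuroblasts divide repeatedly and asymmetrically, and each division runs through the steps the set covers. Replication origins are licensed by the origin recognition complex, Cdt1 and the Mcm helicase. Cyclins with Cdk1 drive mitosis until the anaphase-promoting complex destroys them. A contractile ring of actin and myosin then closes between the daughters.

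The peaks were used as the study called them. The 4 replicate lists, 1 for each fusion library, held 1455 to 1509 peaks at a false discovery rate (FDR) under 0.01, each with a score based on the log2 ratio to Dam alone. The other 2 lists held 984 Ey and 972 Su(H) reproducible peaks, which were called at an FDR under 0.1 in each replicate and passed a threshold of 0.05 on the irreproducible discovery rate (IDR). The median score was 5.14 in Ey-Dam replicate 1 and 4.42 in replicate 2, and it was lower for Su(H)-Dam, at 3.22 and 2.96. Because these scales differ, a score is given here with the percentage of its own list that scored lower. Every peak in the 6 lists started and ended at a GATC site, so the fragment between neighbouring GATC sites sets how finely a peak can be placed. The lists hold no read counts, and the depth behind a single peak is therefore unknown.

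The following sequences show what the peaks near these genes are made of. The first holds the match to the textbook Su(H) consensus in the peak of pbl, and the others are borders that set the peaks of the factors at 1 gene apart or show that they coincide. The border sequences were chosen after their values were seen. All are from the forward strand of Release 6 of the genome (dm6). Capitals mark the consensus match in the first sequence and GATC sites in the rest.
pbl, chr3L:7909507-7909566: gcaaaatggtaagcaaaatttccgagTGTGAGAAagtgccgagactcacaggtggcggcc
CycA, chr3L:11831920-11831979: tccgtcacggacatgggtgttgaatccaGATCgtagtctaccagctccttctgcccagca
fzy, chr2L:16310518-16310577: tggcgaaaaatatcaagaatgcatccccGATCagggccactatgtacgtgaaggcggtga
fzr, chrX:4677986-4678102: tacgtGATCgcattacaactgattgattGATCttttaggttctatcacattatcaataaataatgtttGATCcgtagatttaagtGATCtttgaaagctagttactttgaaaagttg

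A gene was counted as having a peak when one lay within 1000 bp of its span. Reproducible Ey peaks were found at 6 of the 39 genes, namely CycA, CycB, fzy, fzr, pbl and pnut. Reproducible Su(H) peaks were also found at 6, with Rbf in place of CycB. The share was 15.4% for each factor, beside a background over all 18164 genes of 5.54% for Ey and 5.46% for Su(H). Reproducible peaks of both factors lay at 5 genes (12.8%, background 3.33%) and of either factor at 7 (17.9%, background 7.67%). No test was made on these shares, since the genes were grouped with earlier results of these data known. With 2 replicates against 2, an exact permutation test of scores could not give a two-sided p below 0.333, so none is given.

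The replicate lists gave similar counts. Ey-Dam replicate 1 had a peak at 9 of the genes (background 8.03%) and Ey-Dam replicate 2 at 7 (background 7.94%). Su(H)-Dam replicate 1 and replicate 2 each had a peak at 7, against backgrounds of 7.76% and 8.23%. Both Ey-Dam replicates had one at 6 genes (background 6.3%) and both Su(H)-Dam replicates at 6 (background 6.8%). Across all 6 lists, 11 of the 39 genes (28.2%) had at least 1 peak, where 12.9% of all genes did. Of these 11 genes, 5 had a peak in all 4 replicate lists: Rbf, CycA, fzy, pbl and pnut. Of all 18164 genes, 808 (4.45%) did.

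The roles differed in these counts. None of the 12 replication genes had a peak in any list, while 5 of 16 mitosis genes and 4 of 7 cytokinesis genes did, as did 2 of 4 genes of S phase entry. Of all genes, 12.9% had a peak in any list. For reproducible peaks of either factor the counts were 0 of 12, 1 of 4, 4 of 16 and 2 of 7 for replication, S phase entry, mitosis and cytokinesis. The replication count of 0 stands beside a background of 7.67%, which is low enough that a set of 12 genes without a peak is not a result about replication genes. The differences between the roles were not tested.

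**Figure D1:**
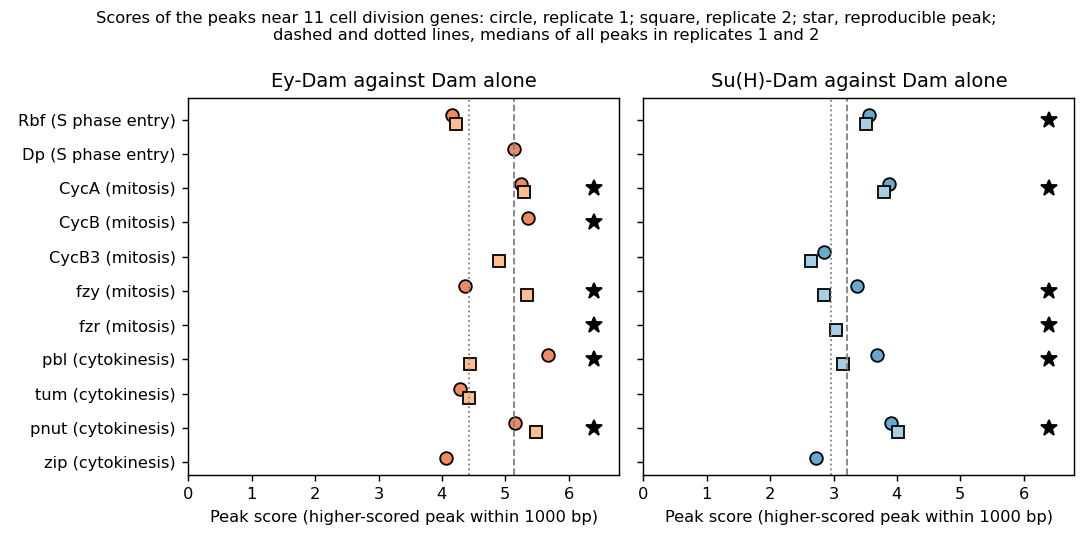
Score of the higher-scored peak within 1000 bp (x axis, score units of each list) for the 11 genes with a peak in any list (y axis), in Ey-Dam (left) and Su(H)-Dam (right). Circles are replicate 1, squares replicate 2, stars mark a reproducible peak and carry no score, and lines are the medians of all peaks in each replicate list. CycA, pbl and pnut lay above the median of their list in all 4 replicates, while fzr had a star for Ey with no Ey-Dam score.

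Among the mitotic cyclins, which activate Cdk1, CycA had peaks of both factors at 1 place. Its peak, chr3L:11831949-11833052, had the same borders in all 6 lists, which held for no other gene of the set. The score was 5.24 in Ey-Dam replicate 1 and 5.30 in replicate 2, higher than 55.1% and 85.7% of the peaks in those lists. In Su(H)-Dam it was 3.88 and 3.80, higher than 85.8% and 88.9%. Thus both factors gave an above-median peak in both replicates over the same 4 GATC fragments. The peak covered coding and intron sequence between 526 and 1629 bp from the 5′ end of the gene, and no other gene lay within 1000 bp of it. Its lower border is the GATC in the CycA sequence above, inside coding sequence.

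CycB and CycB3, which encode the B-type cyclins, each had peaks in fewer lists. CycB had a reproducible Ey peak, chr2R:22806261-22806887, over 2 of its 3 start sites. The score was 5.36 in Ey-Dam replicate 1 at an FDR of 0.00459, and replicate 2 had no peak at an FDR under 0.01 nearer than 51946 bp. No Su(H) list had a peak within 1000 bp of CycB, the nearest being 26934 bp away. CycB3 had no reproducible peak within 1000 bp, although a Su(H) one lay at 1921 bp. At its 3′ end were peaks in Ey-Dam replicate 2 (score 4.90, higher than 70.4% of the list), Su(H)-Dam replicate 1 (2.85) and Su(H)-Dam replicate 2 (2.64). The Su(H) scores were low in their lists, above 30.0% and 32.3% of peaks, and the peaks lay 11 bp from the neighbouring gene Elal.

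fzy and fzr encode the activators of the anaphase-promoting complex, of the Cdc20 and Cdh1 type, which direct it first to securin and the cyclins and later, through G1, to the cyclins again. Both genes had reproducible peaks of both factors. At fzy all peaks began at the same GATC site, 855 bp before the 5′ end as the replicate lists place it, and their other ends differed. Both Su(H)-Dam replicates and the reproducible Su(H) peak ended at 16310547 on chromosome arm 2L, the GATC in the fzy sequence above and 409 bp before the gene. The Ey-Dam peak ended 200 bp before the gene in replicate 1 and ran 404 bp into it in replicate 2. The scores were 4.37 and 5.34 in Ey-Dam, higher than 18.0% and 87.0% of the lists. In Su(H)-Dam they were 3.37 and 2.85, higher than 59.0% and 42.8%. The Ey replicates thus disagreed in both extent and rank, whereas the Su(H) replicates agreed in extent. The whole Su(H) peak lay inside the neighbouring gene cni, so that by position it cannot be assigned to fzy rather than to cni. The Ey-Dam peaks also covered 626 bp of cni in each replicate, and the replicate 1 peak did not reach fzy, so the same limit holds for it.

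At fzr the peaks lay in an intron, from 521 bp after the 5′ end. The reproducible Ey peak was chrX:4678073-4679016 and the reproducible Su(H) peak chrX:4678016-4679016. They shared one end and differed by 57 bp at the other, which is the pair of short GATC fragments in the fzr sequence above: the Su(H) peak starts at the second GATC printed there and the Ey peak at the fourth. Only 1 replicate list, Su(H)-Dam replicate 2, had a peak at fzr at an FDR under 0.01, with a score of 3.04, higher than 54.5% of that list. The nearest Ey-Dam peak at that threshold was 19952 bp away in both replicates. The reproducible Ey peak of fzr therefore rests on calls between an FDR of 0.01 and 0.1. Across the series, 49 of 984 reproducible Ey peaks (4.98%) overlapped no Ey-Dam peak in either replicate list.

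The other mitosis genes had no peak within 1000 bp in any list. They were Cdk1, the mitotic kinase, polo, the Polo kinase, the Aurora kinases aurA and aurB, and Incenp, which anchors aurB in the chromosomal passenger complex. They also included the spindle checkpoint genes BubR1, Bub1 and Bub3, Rca1, an inhibitor of the anaphase-promoting complex, the securin gene pim and thr, which acts with separase. The nearest peak was 4131 bp from Bub3, 4562 bp from Bub1 and 8488 bp from Rca1, and at the other end 124057 bp from aurB. Within mitosis, peaks were therefore found at the 3 cyclin genes and at both activators of the anaphase-promoting complex, and at none of the other 11 genes. That grouping was noticed after the values were seen.

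**Figure D2:**
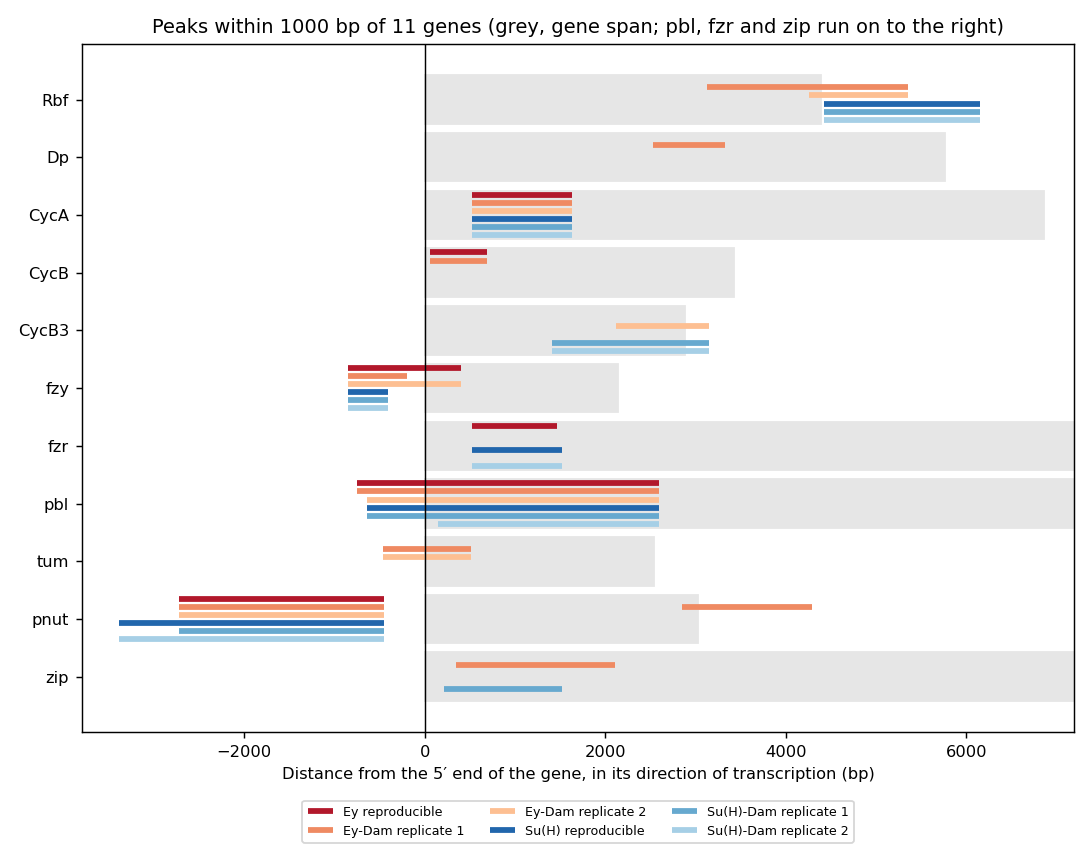
Position of each peak within 1000 bp of the 11 genes (y axis), drawn as distance in bp from the 5′ end of the gene in its direction of transcription (x axis). Grey boxes are gene spans, red shades Ey lists and blue shades Su(H) lists. The 6 CycA bars coincide, the pnut bars end 451 bp before the gene apart from 1 Ey-Dam replicate 1 bar at its 3′ end, and the Rbf and CycB3 bars lie at the 3′ ends.

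Of the cytokinesis genes, pbl and pnut had reproducible peaks of both factors. pbl encodes the exchange factor, Ect2 in mammals, that acts at the cell equator. Its peaks ran from chr3L:7909360 to 7912701 at most, covering sequence before the gene, its 5′ UTR and coding and intron sequence. The scores were 5.67 in Ey-Dam replicate 1 and 4.45 in replicate 2, higher than 72.7% and 50.8% of the lists. In Su(H)-Dam they were 3.69 and 3.15, higher than 76.7% and 60.5%. All 4 scores lay above the median of their list, and the lower border was the same in all 6 lists. The upper border varied over the start site: the Su(H)-Dam replicate 2 peak stopped 144 bp inside the gene, the others 642 or 747 bp before it. The longest of these peaks reached 239 bp into the next gene, CG8281.

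pnut encodes a septin, a filament protein of the contractile ring. Its peaks lay wholly before the gene, ending 451 bp from the 5′ end in all 6 lists, and no other gene was within 1000 bp. The Ey peak, chr2R:8234549-8236820, scored 5.15 and 5.48, higher than 50.4% and 90.3% of the lists. The Su(H) peak scored 3.90 and 4.02, higher than 86.7% and 93.9%, the highest ranks for Su(H) in the set. In Su(H)-Dam replicate 2 the peak began 665 bp further from the gene, at 8233884, and the reproducible Su(H) peak has that longer extent. The added stretch was not particular to that library. Position 8234089 within it also lay in peaks of both Ey-Dam replicates and of Su(H)-Dam replicate 1. Those were separate peaks, more than 1000 bp from the gene and so not counted. The IDR score of the reproducible Su(H) peak was 553, higher than only 0.514% of its list. The rank of this peak was therefore high by the replicate scores and low by the IDR score. A second peak at the 3′ end of pnut, in Ey-Dam replicate 1 alone, scored 3.93, higher than 4.01% of the list.

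tum and zip had peaks in replicate lists without a reproducible peak within 1000 bp. tum encodes the GTPase-activating protein of the centralspindlin complex. Both Ey-Dam replicates had the same peak over its start site, chr2R:13858181-13859154, with scores of 4.28 and 4.42, higher than 14.4% and 49.7% of the lists. No Su(H) list had a peak nearer than 32051 bp to tum, and its Ey peak also covered 203 bp of the neighbouring gene Uba3. zip, the heavy chain of non-muscle myosin II and at 21396 bp the longest gene of the set, had a peak in replicate 1 of each factor only. The scores were 4.06 for Ey-Dam and 2.73 for Su(H)-Dam, higher than 6.87% and 23.5% of the lists. Both peaks covered 2 start sites inside the gene.

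The remaining cytokinesis genes were pav, the kinesin of centralspindlin, scra, which encodes anillin, and sti, the citron kinase. Their nearest peaks were at 5098, 5399 and 1552 bp. The peak near sti was a reproducible Su(H) peak, and sti was the nearest to a peak of the 28 genes without one. The same peak lay 119 bp from vih and is counted below for that gene. For zip the nearest reproducible Ey peak was at 1596 bp. Counted within 1000 bp but outside the gene span were the peaks before pnut at 451 bp, of fzy for Su(H) at 409 bp and of Rbf for Su(H) at 38 bp. The fzy peak of Ey-Dam replicate 1, at 200 bp, was another.

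In S phase entry, Rbf had peaks in all 4 replicate lists and Dp in 1. Rbf encodes the retinoblastoma protein that holds E2F in check. Its Su(H) peak, chrX:795329-797052, was the same in both Su(H)-Dam replicates, with scores of 3.56 and 3.51, higher than 69.1% and 78.0% of the lists. It lay 38 bp beyond the 3′ end of Rbf and wholly within the next gene, CG16989. The Ey-Dam peaks scored 4.16 and 4.23, higher than 9.46% and 41.2%, and they overlapped the 3′ end of Rbf. They had no reproducible counterpart within 1000 bp of the gene, the nearest reproducible Ey peak being 24081 bp away. Of all genes with an Ey peak in both replicates, 317 of 1145 (27.7%) likewise had no reproducible Ey peak. Dp encodes the partner of E2F proteins and had a peak in Ey-Dam replicate 1 only. Its score was 5.13, higher than 49.1% of the list, at an FDR of 0.00812. Cdk2, the partner of Cyclin E, and E2f2, the repressor E2F, had no peak nearer than 20919 and 31603 bp.

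The 12 replication genes had no peak within 1000 bp in any list. They were Orc1, Orc2, Orc5 and Orc6 of the origin recognition complex, dup, which encodes Cdt1, and its inhibitor geminin, the helicase genes Mcm2, Mcm3, Mcm5, Mcm6 and Mcm7, and PCNA, the clamp of the DNA polymerases. The distance to the nearest peak ran from 2661 bp for Orc6 to 190711 bp for Mcm3, with a median of 7654 bp. Peaks were within 10000 bp of 7 of the 12, which is 58.3%, where 32.9% of all genes had one so near. For Orc6, peaks of both Ey-Dam replicates lay at 2661 and 2813 bp. For Orc5 the reproducible Ey peak lay at 4261 bp. Within 5000 bp the order was the other way, with 2 of the 12 (16.7%) beside 22.7% of all genes. Mcm5, Mcm7, PCNA and Mcm3 lay farthest, at 26743, 102374, 124251 and 190711 bp. Over all 39 genes the median distance was 5399 bp, and over all annotated genes 21457 bp.

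**Figure D3:**
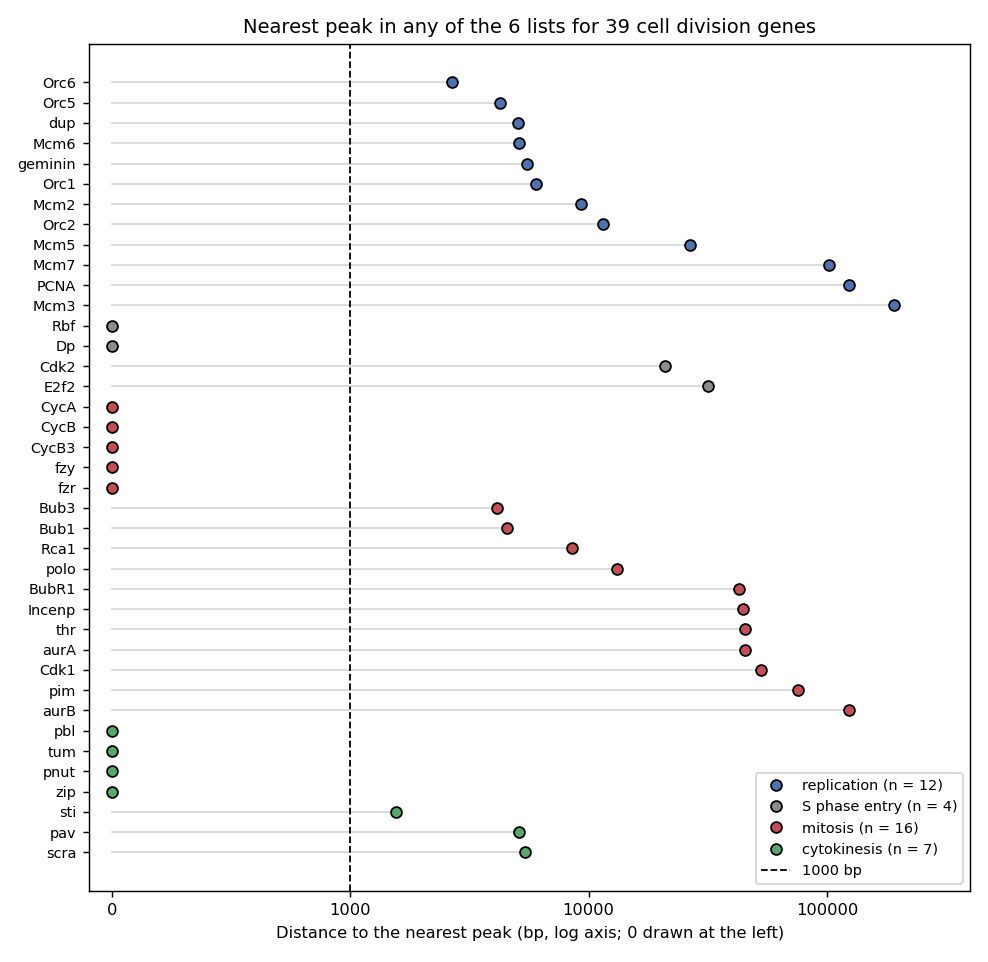
Distance in bp from each of the 39 genes (y axis, grouped by role) to the nearest peak in any of the 6 lists (x axis, log scale with 0 drawn at the left). Points left of the dashed line are the 11 genes with a peak within 1000 bp; the 12 replication genes all lie right of it, from 2661 to 190711 bp.

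Gene length moved with these counts. The 11 genes with a peak in any list had a median length of 4390 bp (2142 to 21396), and the 28 without one a median of 2752 bp (1028 to 6818). Replication genes had a median of 2671 bp, mitosis genes 3106 bp and cytokinesis genes 5124 bp. Among all protein-coding genes, the share with a reproducible peak of either factor rose with length, from 4.02% up to 2000 bp and 5.48% from there to 5000 bp to 26.9% over 20000 bp. None of the 10 genes of the set up to 2000 bp had a peak in any list, where 7.45% of protein-coding genes of that length had one. Of the 21 genes between 2000 and 5000 bp, 4 had a reproducible peak (19.0%) and 6 a peak in any list (28.6%), where 10.4% of protein-coding genes of that length had one in any list. The number of GATC sites within 1000 bp of the gene had the same median, 19, in genes with and without a peak. The part of length in the difference between roles was not tested.

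**Figure D4:**
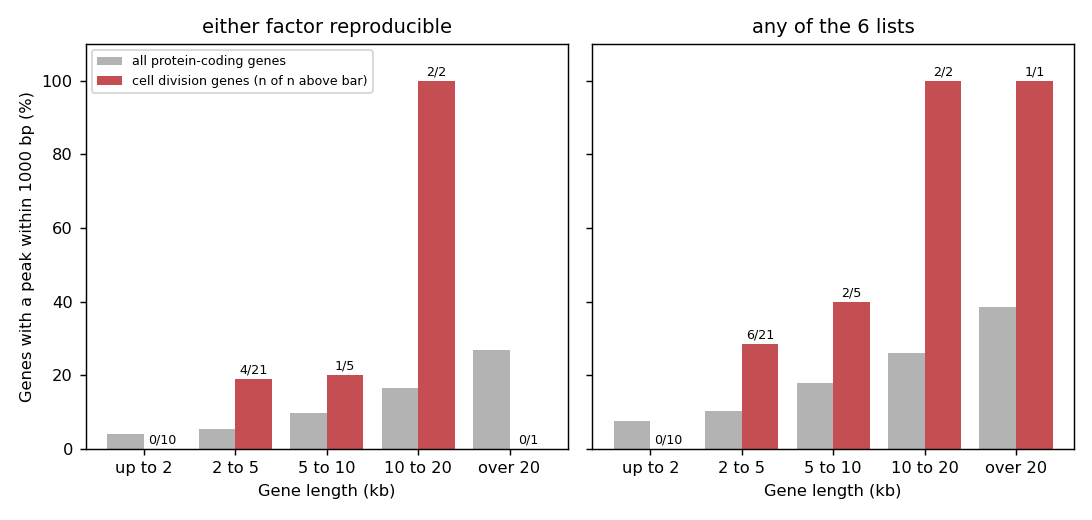
Share of genes with a peak within 1000 bp (y axis, %) by gene length (x axis, kb), for reproducible peaks of either factor (left) and any of the 6 lists (right). Grey bars are all protein-coding genes, red bars the cell division genes with their counts above; the shortest class held 10 of these genes and none with a peak, and the longer classes hold too few genes for their shares to be read closely.

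Where both factors had a reproducible peak, the peaks overlapped at each of the 5 genes, and the shorter one lay wholly within the longer. No such share was worked out for all 604 genes with reproducible peaks of both factors. The overlap therefore cannot be called particular to this set. The shared part was 1103 bp at CycA, 944 bp at fzr, 446 bp at fzy, 3236 bp at pbl and 2271 bp at pnut. As a share of the longer peak this was 100% at CycA, 94.3% at fzr, 96.9% at pbl, 77.4% at pnut and 35.4% at fzy. Both factors were set against the same group of Dam-alone libraries, and which of these served which fusion library is not given. The peaks of the factors may therefore share controls and cannot be taken as independent of each other. Of the 6 reproducible Ey peaks at these genes, 3 covered a start site of the gene (CycB, fzy and pbl), and of the 6 Su(H) peaks 1 did (pbl). Over all reproducible peaks, 32.1% for Ey and 29.5% for Su(H) covered a start site of any gene.

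The peaks were also searched on both strands for the textbook Su(H) consensus, which reads GTGAGAA or GTGGGAA after a C or a T. The 6 reproducible Su(H) peaks held 5 matches, 1 at pbl and 4 at pnut. The pbl match is the one printed in capitals above, in an intron, 2418 bp from the 5′ end, and it lay inside the peak of all 6 lists. At pnut, 3 of the 4 matches lay inside the peak of all 6 lists. A forward and a reverse match there stood 7 bp apart, 661 and 646 bp before the gene. Such a pair with at most 25 bp between was in 9 of the 972 reproducible Su(H) peaks (0.926%), a count made after this pair was seen. Over windows of the same length along the chromosome arms, 28.7% of those as long as the pbl peak and 26.5% of those as long as the pnut peak held at least 1 match. The peaks at Rbf, CycA, fzy and fzr held none, and neither did the Ey peak of CycB. Of all reproducible Su(H) peaks, 32.2% held a match. The Ey consensus of the study had 1 match in these peaks, at pnut, and 7.89% of windows as long as the pnut Ey peak held one. A match describes the letters only and is not evidence that a factor sat there.

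A further 104 genes of the same processes were counted in the same way: 32 of replication, 51 of mitosis and 21 of cytokinesis. Reproducible peaks of either factor were at 7 of them (6.73%), close to the background of 7.67%. None of the 32 further replication genes had a reproducible peak, and 4 had a peak in a replicate list. That is 12.5%, close to the 12.9% of all genes with a peak in any of the 6 lists. These were Psf3 of the GINS complex, the kinase gene Cdc7, Top2, which encodes topoisomerase II, and RnrS, a subunit of ribonucleotide reductase. With the set above, 44 replication genes were therefore without a reproducible peak.

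In mitosis 3 of the 51 further genes (5.88%) had a reproducible Su(H) peak, vih, endos and SAK, which is close to the Su(H) background of 5.46%, and none had a reproducible Ey peak. vih encodes the ubiquitin-conjugating enzyme that works with the anaphase-promoting complex, endos an inhibitor of the phosphatase PP2A and SAK the kinase of centriole duplication, Plk4 in mammals. Only the endos peak was also in both Su(H)-Dam replicate lists, with scores of 3.68 and 3.91, higher than 75.9% and 91.8% of the lists. The SAK peak was in neither. Across all 6 lists, 6 of the 51 further mitosis genes had a peak (11.8%), where 12.9% of all genes did.

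In cytokinesis 4 of 21 further genes (19.0%) had a reproducible Ey peak, beside a background of 5.54%, and 1 of 21 (4.76%) had a reproducible Su(H) peak, beside 5.46%. dia encodes the formin of the contractile ring and had overlapping peaks of both factors, the reproducible Ey one over its start site and the reproducible Su(H) one 17 bp from it. Of the replicate lists only Ey-Dam replicate 2 had a peak there, with a score of 4.99, higher than 74.2% of the list. chic encodes profilin, with scores of 5.86 and 4.05 in Ey-Dam, higher than 79.1% and 35.1% of the lists. A peak with the same borders scored 3.29 and 2.39 in Su(H)-Dam, higher than 54.0% and 19.9%. cindr, an adaptor protein that binds anillin, had the same intron peak in all 4 replicate lists. The scores were 5.07 and 4.75 in Ey-Dam, higher than 46.4% and 64.2% of the lists. In Su(H)-Dam they were 2.87 and 2.47, higher than 30.9% and 23.7%. The further cytokinesis genes were also the longer ones, with a median of 4739 bp against 3308 bp in mitosis and 2524 bp in replication.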

How the data were processed

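DamID-seq libraries of Dam alone, Ey-Dam and Su(H)-Dam (2 of each) were processed by the authors. With damidseq_pipeline, which runs Bowtie2, reads were mapped on dm6, binned by GATC fragment, normalised and expressed as log2 ratios to Dam alone, and find_peaks called the peaks. The deposited score of a replicate peak is based on these ratios, and each peak has its FDR. The deposited score of a reproducible peak is that of the IDR program. The aligner's settings are not given in the sources used here, and lists of overlapping peaks were not used.

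Genes came from Ensembl release 115 on 6 arms, without transposon insertions, and the sequence from RefSeq Release 6. Distance was taken from the whole gene span, and a peak within 1000 bp was counted for every such gene. The genes and lists were chosen with earlier results of these data known. Every gene with a peak within 1000 bp in any list was named with its scores, and the others by role and distance. Of 104 further genes, 99 matched by symbol, 2 by an older symbol and 3 by a RefSeq synonym, and those with a reproducible peak were named, apart from some cytokinesis results that are not reported here. The replication genes of the replicate lists were named after their values were seen. No counts of reads were available to the calculation, and peaks were described without a test. Distances and motif searches were tested on simulated data. The alternatives were other distances, higher-scored peaks, the nearest gene only, start sites only, single replicates and other overlaps. Python 3.11.15, numpy 2.4.6, pandas 2.3.3 and matplotlib 3.10.9 were used.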

Additional observations from a re-analysis of the deposited data

How the results depend on the processing

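Of 78 alternative values, 57 stayed within 1.5 times the value reported and 21 did not. At a distance of 0 bp, 3 genes had a reproducible Su(H) peak, 3 both factors and 3 a Su(H) peak in both replicates, with 0 in S phase entry and 1 in cytokinesis. Over all genes the shares for reproducible peaks at 0 bp were 4.05% for Su(H), 2.52% for both factors and 5.69% for either. At 5000 bp the replication count rose to 1 (Orc5) and cytokinesis to 4, where 13.8% of all genes had a peak of either factor. The count of further genes rose to 12 for Ey and 11 for Su(H). Of all 18164 genes, 1806 (9.94%) had an Ey peak at that distance and 1816 had a Su(H) peak. The reproducible peaks were also ordered by the mean of the best overlapping replicate scores, since 822 of the 984 Ey peaks tie at the highest IDR score. In the upper part of that order, 3 genes had an Ey peak, 2 had both factors and 2 mitosis genes had a peak (CycA and CycB). Of all genes, 2.8% had an Ey peak in that part, 1.45% both factors and 4.0% either factor. Counting only the nearest gene, or only start sites, left 0 in S phase entry, because the Rbf peak lies over CG16989 at the 3′ end. The shares of all genes with a peak of either factor were then 6.09% and 5.29%. The study's own Su(H) consensus gave 9 matches in place of 5, in 3 of the 6 peaks. With it, 72.8% of all reproducible Su(H) peaks held a match. The rate was 0.862 matches per kb in the 6 peaks and 0.904 in all reproducible Su(H) peaks.

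With 1 replicate list in place of the reproducible peaks, leaving out each replicate in turn, the counts ran from 7 to 9 genes for Ey, from 7 to 7 for Su(H) and from 6 to 6 for both factors. They were 0 to 0 for replication, 1 to 2 for S phase entry, 4 to 4 for mitosis and 3 to 4 for cytokinesis. The further genes had 8 to 9 for Ey and 8 to 10 for Su(H), against 4 each from reproducible peaks. Over all genes the shares in single replicate lists were 7.94% to 8.03% for Ey and 7.76% to 8.23% for Su(H). They were 5.29% to 5.62% for both factors and 10.5% for either. Without replicate 2, Dp was added in S phase entry, tum and zip in cytokinesis and CycB3 in mitosis, where fzr was lost. Without replicate 1, CycB3 and tum were added and CycB was lost. No paired analysis was possible because no value here comes from a test, and the sources used here do not say which Dam-alone library was set against which fusion library. With 2 libraries of each fusion and no read counts, a gene without a peak cannot be called unbound.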
